A study of Mus musculus with 6 samples.

Results

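The genes described here are 10 endothelial genes, Pecam1, Cdh5, Kdr, Emcn, Tek, Vwf, Flt1, Tie1, Egfl7 and Esam, taken by name from the 19060 genes of the deposited count table. They were followed in RNA sequencing of the proximal end of the mouse incisor, a tooth that grows throughout life. The 3 control mice were Fgfr1fl/fl, carrying loxP sites around the gene on both alleles but no Cre in the labels, and the 3 mutant mice were Gli1-Cre;Fgfr1fl/fl. In the labels the controls are called wild type, whereas the sample protocol and the paper give Fgfr1fl/fl for them. The driver is the tamoxifen-inducible Gli1CreER in the paper, so recombination starts in cells that express Gli1, a marker of incisor mesenchymal stem cells, and the other cells of the tissue keep the gene. All mice were 1 month old at tamoxifen, which the methods give for the controls too, and incisors were collected 1 week later. The comparison asks how the loss of Fgfr1 from Gli1+ cells changed the incisor's mRNA.

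Endothelial cells line blood and lymphatic vessels. Their growth and survival depend on receptor tyrosine kinases, those for vascular endothelial growth factor (VEGF), encoded by Kdr and Flt1, and the angiopoietin receptor with its partner, encoded by Tek and Tie1. Adjacent cells are joined by adhesion proteins such as VE-cadherin (Cdh5), PECAM-1 (Pecam1) and ESAM (Esam), while endomucin (Emcn) coats the surface and von Willebrand factor (Vwf) is stored for haemostasis. The dental pulp is rich in capillaries, which in the incisor run close to the odontoblast layer.

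The stretches upstream of receptor genes are shown first because the receptors are compared in pairs below. RefSeq's promoter table (GRCm38.p6) held 6 of the 10 genes, and it had no entry for Vwf, Cdh5, Esam or Pecam1. Each line gives the 250 bases before the annotated start, 5′ to 3′ on the gene's strand. Capitals mark the motif AGGAAG or the motif CGGAAG, cores that ETS transcription factors bind, and the motif TATAAA, each searched on both strands. Kdr lies at chr5:75978456-75978705 and Flt1 at chr5:147726012-147726261, both on the minus strand, and Tek lies at chr4:94739039-94739288 on the plus strand. The starts are RefSeq's, and the gene spans given with the values are GENCODE's, so the last 3 bases of the Kdr stretch lie inside its GENCODE span. For Tie1, RefSeq's start lies well inside the GENCODE gene, 212 of the 250 bases being within it, and its stretch is not printed. The same holds for the Egfl7 starts.
Kdr: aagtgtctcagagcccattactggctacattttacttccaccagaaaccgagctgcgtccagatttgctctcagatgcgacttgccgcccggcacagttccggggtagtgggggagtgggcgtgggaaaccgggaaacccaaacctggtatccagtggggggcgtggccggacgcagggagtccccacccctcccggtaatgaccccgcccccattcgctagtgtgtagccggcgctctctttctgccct
Flt1: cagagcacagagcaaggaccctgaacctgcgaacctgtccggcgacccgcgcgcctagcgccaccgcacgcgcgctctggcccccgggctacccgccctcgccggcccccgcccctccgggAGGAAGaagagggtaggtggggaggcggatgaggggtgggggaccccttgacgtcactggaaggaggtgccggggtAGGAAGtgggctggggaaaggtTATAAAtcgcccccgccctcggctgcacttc
Tek: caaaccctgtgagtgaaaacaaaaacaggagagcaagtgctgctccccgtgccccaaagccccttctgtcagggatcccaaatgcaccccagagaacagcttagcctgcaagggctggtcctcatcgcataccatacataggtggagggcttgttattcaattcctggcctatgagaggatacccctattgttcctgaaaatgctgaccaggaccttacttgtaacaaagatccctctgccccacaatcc

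The Flt1 stretch held 2 ETS cores and 1 TATA motif, and the bases before RefSeq's Tie1 start held 2 ETS cores that do not overlap. Neither Kdr nor Tek had any of the 3 motifs in this window. Emcn had 2 cores, and Egfl7, which has 3 annotated starts, had 3 cores before the first, 1 before the second and 0 before the third. At least 1 of the ETS cores searched was therefore present for 4 of the 6 genes, and 39.2% of all 32851 promoters in the table held one. The 39.2% counts each promoter singly, whereas Egfl7 was counted once over its 3 starts, so these shares are not alike. Other sequences that ETS factors bind were not searched, so Kdr and Tek may still hold ETS sites. The core beginning with A was in 29.5% of these promoters, the core beginning with C in 13.6%, and the TATA motif in 12.4%. A match describes the letters only. Egfl7 is also the gene that hosts miR-126a, an endothelial microRNA, whose mature 3p arm lies inside the gene at chr2:26591402-26591423 on the plus strand. It is shown, with its seed (bases 2 to 8) in capitals, because host transcripts are what the Egfl7 counts measure. The microRNA itself was not analysed here.
mmu-miR-126a-3p: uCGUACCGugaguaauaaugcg

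All 10 genes were expressed in every sample and all passed the filter on low counts, as did 15826 of the 19060 genes. Levels are given as CPM, counts scaled to a common library size by the upper quartile. The control samples held 31060222 to 32712448 counts and the mutant samples 5276557 to 11819576. For the 10 genes this came to between 51 and 3463 counts in a sample. Fgfr1, the targeted gene, had 529, 924 and 434 CPM in controls and 148, 318 and 262 CPM in mutants. Its log2 fold change of -1.37 (SE 0.40) had an adjusted p of 0.0881 in edgeR (unadjusted p 0.00846). The tissue label was met by its markers, with 15200 to 66900 CPM of Amelx (amelogenin, the main enamel protein) and 1590 to 7740 CPM of Dspp (the odontoblast product dentin sialophosphoprotein).

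Samples differed in skeletal muscle mRNA, and these values stand beside every result below. The summed level of 10 muscle genes was 11, 3240 and 32.9 CPM in controls 1 to 3, and 7090, 176 and 1130 CPM in mutants 1 to 3. Control 2 and mutant 1 thus held the most in their groups. Their part in the results was not tested, but values without both samples are given.

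None of the 10 endothelial genes passed the study's threshold (unadjusted p under 0.05 and a change over 1.5-fold), and none passed at an adjusted p under 0.05 either. In the background of all genes tested, 8.92% were lower and 10.9% higher in mutants at the study's threshold, and 3.06% were lower and 3.72% higher at an adjusted p under 0.05. The log2 fold changes, mutant over control, ran from -1.02 to 0.34. Of the 10, 8 were negative and 2 positive, with a median of -0.33 against -0.04 for all genes tested. The lowest unadjusted p was 0.0521, and the adjusted p ran from 0.254 to 0.966. The samples are single animals or pools that the labels do not tell apart, so these p-values measure the spread between the samples as deposited. In bulk tissue, fewer cells of a type and less RNA per cell cannot be told apart.

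**Figure D1:**
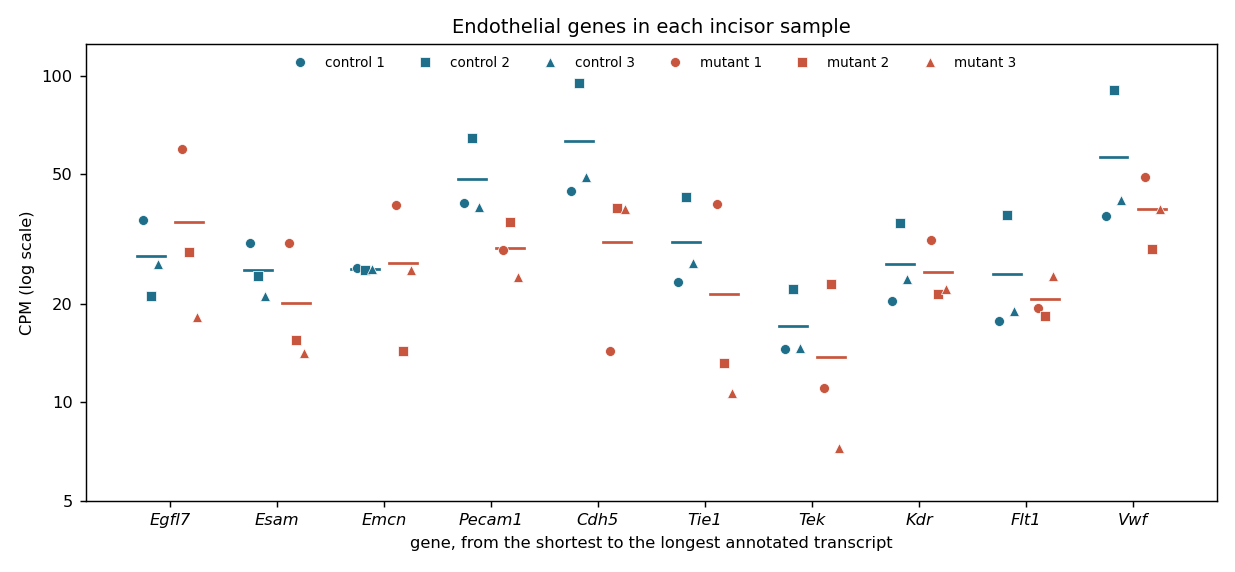
CPM (log axis) of each of the 10 genes in the 3 control (blue) and 3 mutant (red) samples, with symbols for the replicate and bars for group means. Groups are separate for Pecam1 and Cdh5, and control 2 (blue square) is the highest control for the 7 genes to the right of Emcn.

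The adhesion genes Pecam1 and Cdh5 were the ones in which every mutant sample lay below every control sample. Pecam1, which encodes the platelet and endothelial adhesion molecule CD31 (chromosome 11 of GRCm38, 106654217 to 106750628), had 40.8, 64.6 and 39.6 CPM in controls and 29.2, 35.6 and 24.2 CPM in mutants. The means were 48.3 ± 14.1 and 29.7 ± 5.72 CPM (SD, n = 3 each). Its log2 fold change was -0.70 (SE 0.31, 95% interval -1.41 to 0.01), and edgeR gave an adjusted p of 0.254 (unadjusted p 0.0521). Control 2 was the high sample among the controls, and the gap between the groups lay between 39.6 and 35.6 CPM.

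Cdh5 encodes VE-cadherin, the cadherin of endothelial junctions (chromosome 8, 104101625 to 104144511). It had 44.5, 95.2 and 49.1 CPM in controls and 14.4, 39.3 and 39.0 CPM in mutants. The means were 62.9 ± 28.0 and 30.9 ± 14.3 CPM. Its log2 fold change was the most negative of the 10, at -1.02 (SE 0.46, 95% interval -2.07 to 0.03), and edgeR gave an adjusted p of 0.263 (unadjusted p 0.0554). Both groups held a sample apart, control 2 above and mutant 1 below. The 66 counts of mutant 1 gave an exact Poisson interval of 11.1 to 18.3 CPM, which covers counting error only, so mutant 1 differed from the other mutants by more than counting error.

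Groups that do not overlap in this direction were found for 16.3% of all genes tested, and in the other direction for 14.1%. Among the 10 genes they were 2, or 20%, and 0. Pecam1 and Cdh5 also moved across the threshold with the processing. Both passed it with edgeR's TMM scaling, with total counts only and with DESeq2. At the same threshold 3251, 3588 and 3358 of all 15826 genes tested passed in these fits. Without control 2 the log2 fold change was -0.44 for Pecam1 and -0.59 for Cdh5, and without control 2 and mutant 1 it was -0.43 and -0.26.

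Esam, another immunoglobulin-family adhesion protein of endothelial junctions (chromosome 9, 37528078 to 37538319), had 30.7, 24.3 and 21.2 CPM in controls and 30.8, 15.5 and 14.2 CPM in mutants. Mutant 1 lay at the top of the control range and the other mutants below it. Its log2 fold change was -0.34 (SE 0.41), with an unadjusted p of 0.428 (edgeR), and -0.79 without mutant 1, when the unadjusted p was 0.0377. The spread in the mutants, 20.2 ± 9.20 CPM, was wider than in the controls, 25.4 ± 4.83 CPM.

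The VEGF receptor genes did not separate the genotypes. Kdr encodes VEGFR2, the main signalling receptor (chromosome 5, 75932827 to 75978458). It had 20.4, 35.5 and 23.8 CPM in controls and 31.4, 21.5 and 22.3 CPM in mutants. All mutant values lay within the control range, and the log2 fold change was -0.09 (SE 0.35, 95% interval -0.90 to 0.72). Flt1 encodes VEGFR1, which binds VEGF and in its soluble form acts as a decoy (chromosome 5, 147561604 to 147726011). Its controls had 17.7, 37.4 and 19.0 CPM and its mutants 19.4, 18.4 and 24.3 CPM. The mutants again lay within the control range, which control 2 widened, and the log2 fold change was -0.25 (SE 0.40, 95% interval -1.17 to 0.67). Counts per gene do not separate the membrane from the soluble form of Flt1.

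The angiopoietin receptor genes spread widely among mutants. Tek encodes TIE2, the receptor of angiopoietins (chromosome 4, 94739289 to 94874976), and had 14.6, 22.2 and 14.7 CPM in controls and 11.1, 23.1 and 7.26 CPM in mutants. Mutant 2 was above all controls, while mutants 1 and 3 were below them. Its log2 fold change was -0.31 (SE 0.53, 95% interval -1.53 to 0.91), and without mutant 2 it was -0.92 (unadjusted p 0.108, edgeR).

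Tie1 encodes the orphan receptor that forms complexes with TIE2 (chromosome 4, 118471191 to 118490061). It had 23.4, 42.6 and 26.7 CPM in controls and 40.6, 13.2 and 10.7 CPM in mutants. Here mutant 1 was close to control 2, and mutants 2 and 3 were below all controls, the reverse of the order in Tek for mutants 1 and 2. The log2 fold change was -0.54 (SE 0.55, 95% interval -1.80 to 0.72), the largest SE of the 10. Without mutant 1 it was -1.38, with an unadjusted p of 0.00696, and without control 2 and mutant 1 it was -1.07, with an unadjusted p of 0.0234 (edgeR). The adjusted p of every one of the 10 genes stayed above 0.05 in each of these fits.

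Emcn encodes endomucin, a sialomucin of capillary and venous endothelium (chromosome 3, 137341067 to 137432185). It was the most even of the 10 in controls, at 25.8, 25.4 and 25.6 CPM, and had 40.2, 14.4 and 25.4 CPM in mutants. The controls spanned less than 1 CPM, and the mutants lay on both sides of them and level with them. The log2 fold change was 0.05 (SE 0.41, 95% interval -0.88 to 0.99).

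Vwf, the gene for von Willebrand factor (chromosome 6, 125546774 to 125686679), had 37.3, 90.7 and 41.6 CPM in controls and 48.9, 29.5 and 39.2 CPM in mutants. Control 2 was far above the other 5 samples. Its log2 fold change was -0.53 (SE 0.39, 95% interval -1.44 to 0.37), and without control 2 it was -0.01. Egfl7, which encodes a secreted protein of the endothelial matrix (chromosome 2, 26580014 to 26593120), had 36.2, 21.1 and 26.6 CPM in controls and 59.6, 28.8 and 18.2 CPM in mutants. Mutant 1 was the highest sample and mutant 3 the lowest. The log2 fold change was 0.34 (SE 0.46, 95% interval -0.72 to 1.4), and without mutant 1 it was -0.27.

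The intervals limit what can be said of size. A 2-fold decrease lay outside the 95% interval for 3 genes (Kdr, Emcn and Egfl7) and inside it for the other 7. A 2-fold increase lay outside it for 9 genes, Egfl7 being the exception.

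**Figure D2:**
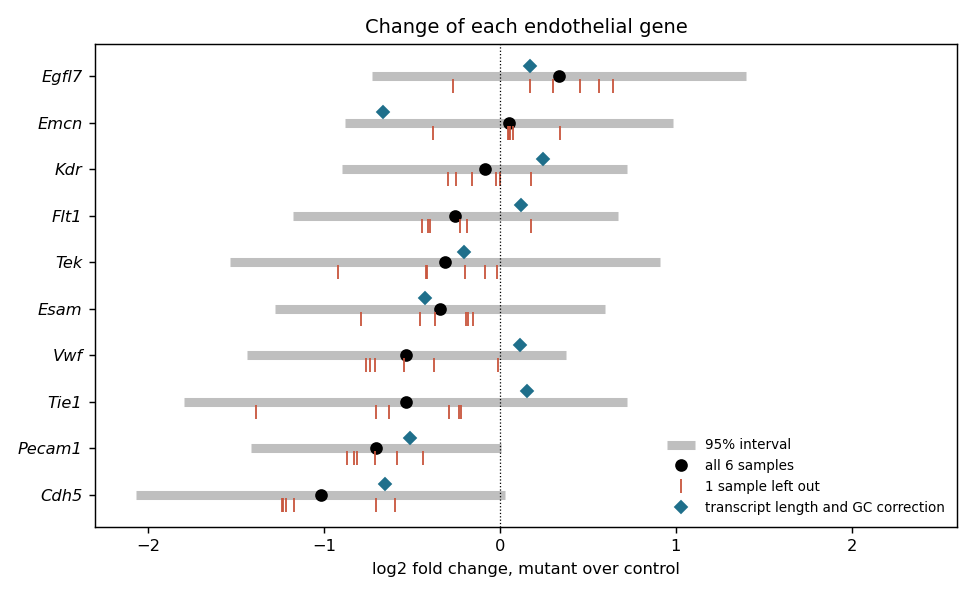
Log2 fold change (mutant over control) of each of the 10 genes, with the 95% interval in grey, fits that leave out 1 sample as red ticks and the value corrected for transcript length and GC as blue diamonds. The intervals of all 10 genes include 0, and the Emcn and Egfl7 values are the only ones above 0 with all 6 samples.

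Levels between genes can be compared per length only. Per kilobase of the longest annotated transcript, the control levels were highest for Egfl7 (20.1 ± 5.49 CPM per kb), Cdh5 (15.8 ± 7.01), Pecam1 (14.0 ± 4.09) and Esam (13.6 ± 2.59). They were followed by Emcn (9.89 ± 0.07), Tie1 (7.30 ± 2.42) and Vwf (6.40 ± 3.36), and were lowest for Kdr (4.49 ± 1.34), Tek (3.69 ± 0.94) and Flt1 (3.58 ± 1.59). Kdr, Tek and Flt1 thus stood at the low end and the junction genes near the top, with Tie1 between them. Of neighbours in this order, Esam and Emcn alone had ranges that did not overlap (11.4 to 16.5 against 9.81 to 9.95 CPM per kb). In mutants Egfl7 was again first (25.5 ± 15.4 CPM per kb), Cdh5 stood below Pecam1 with 7.73 ± 3.57, and Kdr and Flt1 were the neighbours without overlap, 3.63 to 5.31 against 2.67 to 3.52 CPM per kb. The scale assumes that the longest transcript is the one expressed.

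The 10 genes did not share a single order of samples, and in controls the order differed between genes with long and short transcripts. In controls, control 2 was the highest for Pecam1, Cdh5, Kdr, Tek, Vwf, Flt1 and Tie1, the 7 genes with an annotated transcript over 3000 bases (3441 to 8834). For the 3 genes with shorter transcripts, Egfl7 (1391), Esam (1865) and Emcn (2588), the highest was control 1, by less than 1 CPM for Emcn. The same lean was present beyond the 10 genes. Among protein-coding genes that averaged 10 CPM or more, control 2 was the highest control for 55.1% of 5203 genes with transcripts over 3000 bases and for 10.7% of 4117 genes with shorter ones. Control 1 was the highest for 22.8% and 68.8%.

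The mutant samples showed a looser pattern. Mutant 1 was the highest mutant for 6 of the 10 genes (Kdr, Emcn, Vwf, Tie1, Egfl7 and Esam), among them all 3 with shorter transcripts, and the lowest for Cdh5. Among protein-coding genes that averaged 10 CPM or more, mutant 1 was the highest mutant for 43.3% with transcripts up to 3000 bases. For the longer ones the share was 29.8%. Mutant 1 was also the lowest mutant most often, for 3721 of all 9320 such genes, against 2776 for mutant 2 and 2823 for mutant 3. The median SD of log2 CPM of the 10 genes was 0.40 in controls and 0.67 in mutants. Over the 9320 protein-coding genes that averaged 10 CPM or more it was 0.31 and 0.47. That set has no upper limit, so it is not matched to the level of the 10 genes.

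**Figure D3:**
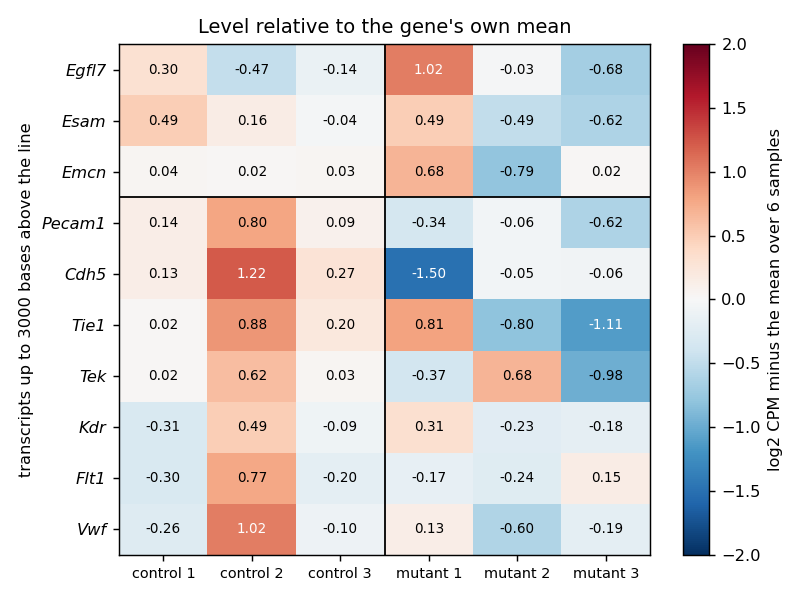
Log2 CPM of each gene minus its mean over the 6 samples, with genes ordered from the shortest to the longest annotated transcript and a line at 3000 bases. The control 2 column is the highest control for all 7 genes under the line, and Cdh5 in mutant 1 is the lowest cell (-1.5).

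Fold changes of all genes also varied with transcript length. The median log2 fold change was 0.93 for 695 protein-coding genes with transcripts up to 1000 bases and 0.18 for 2667 between 1000 and 2000 bases, the class of Egfl7 and Esam. It was -0.12 for the class of Emcn (2000 to 3000 bases), -0.25 for that of Pecam1 and Cdh5 (3000 to 4000), -0.28 for that of Kdr, Tek and Tie1 (4000 to 6000) and -0.23 for that of Vwf and Flt1 (over 6000). With each sample corrected for its trend with transcript length and GC, the median of the 10 genes was -0.04 against -0.12 for all genes tested, and 5 of the 10 were negative. Pecam1 was then -0.51 and Cdh5 -0.65, while Kdr (0.25), Vwf (0.11), Flt1 (0.12) and Tie1 (0.15) were above 0 and Emcn was -0.66. None of the 10 passed the threshold in this fit, and 2334 of all 15826 genes tested passed it in either direction. Corrected Vwf levels were 45.0, 52.4 and 35.8 CPM in controls, so control 2 was nearer to the others than before, and those of Cdh5 were 43.0, 76.6 and 44.1 CPM, so there it stayed apart.

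Ratios within a sample do not depend on the scaling, and 3 were compared between the genotypes. Flt1 over Kdr was 0.87, 1.05 and 0.80 in controls and 0.62, 0.86 and 1.09 in mutants, a difference in mean log2 ratio of -0.11 (exact permutation test, two-sided, p = 0.8, adjusted p = 0.8 over the 3 ratios). Tie1 over Tek was 1.60, 1.91 and 1.81 in controls, which were close together, and 3.65, 0.57 and 1.47 in mutants, which were not. The SD of its log2 ratio was 0.13 in controls and 1.33 in mutants, and the difference in means was -0.28 (exact permutation p = 0.7, adjusted p = 0.8). Vwf over Pecam1 was 0.91, 1.4 and 1.05 in controls and 1.67, 0.83 and 1.62 in mutants, a difference of 0.25 (exact permutation p = 0.6, adjusted p = 0.8). With 3 samples in each group the smallest p this test can give is 0.1, so none could have passed 0.05.

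**Figure D4:**
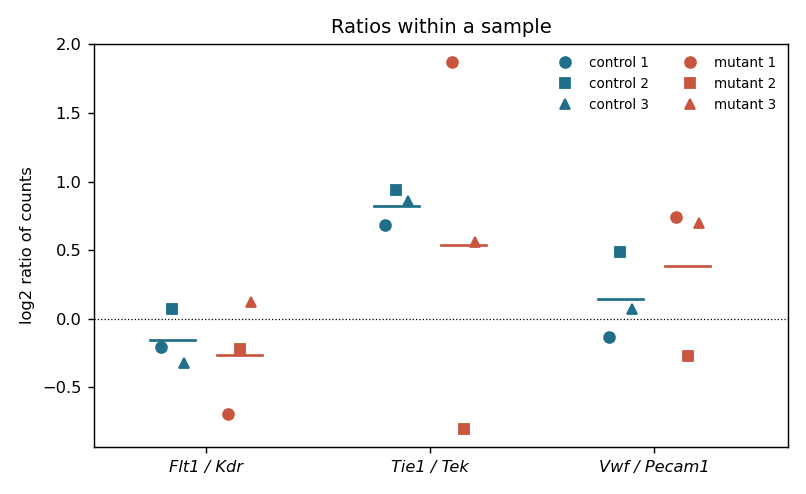
Log2 ratio of the counts of paired genes in each control (blue) and mutant (red) sample, with bars for group means. The Tie1 over Tek ratios lie between 0.68 and 0.94 in controls and between -0.80 and 1.87 in mutants.

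Other endothelial genes gave a like picture. Of 28 listed, 27 were tested, 2 fell at the study's threshold, 0 rose and 25 did not pass. Of all genes tested, 8.92% fell and 10.9% rose at that threshold. The median log2 fold change of the 27 was -0.51, against -0.04 for all genes tested. After the length and GC correction it was -0.23 against -0.12. Eng, encoding endoglin, a co-receptor for TGF-β family ligands, had 74.6, 106 and 69.5 CPM in controls and 59.6, 54.3 and 52.7 CPM in mutants (log2 fold change -0.59, SE 0.24, unadjusted p 0.0408 and adjusted p 0.223, edgeR). Plvap, a protein of the diaphragms of fenestrated capillaries, had 56.4, 85.2 and 57.1 CPM against 28.8, 49.9 and 43.5 CPM (log2 fold change -0.70, SE 0.30, unadjusted p 0.0483 and adjusted p 0.243). For both, all mutants were below all controls, and neither passed after the length and GC correction, when Eng was -0.07 and Plvap -0.39. None of the 27 passed the study's threshold without control 2, and none without control 2 and mutant 1. In all 6 samples, 6 of the 27 lay lower in every mutant than in every control and 0 higher. Over all genes tested these shares were 16.3% and 14.1%.

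The ligands and co-receptors of the same pathways followed no common direction. Of 12 VEGF and angiopoietin genes 11 were tested, none passed either threshold, and 5 were negative, with a median of 0.17. Nrp2, a VEGF and semaphorin co-receptor and one of the highest of the list, had 37.3, 69.6 and 42.4 CPM in controls and 63.9, 57.7 and 48.5 CPM in mutants (log2 fold change 0.19, SE 0.30). It passed the study's threshold with the length and GC correction, at 0.60 (unadjusted p 0.0405). Angpt4, an angiopoietin, ranged from 21 to 136 CPM in controls and from 27.2 to 79.9 CPM in mutants (-0.76, SE 0.65). Neither group pair was separate.

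Of 14 endothelial transcription regulators, 1 fell and 13 did not pass, with a median of 0.06. The exception was Lyl1, a basic helix-loop-helix factor of blood and endothelial cells, which had 4.02, 3.27 and 1.91 CPM in controls and 0 in all 3 mutants. Set against 3 counts per mutant library, its mean was at least 7.58-fold lower, and edgeR gave an adjusted p of 0.0464. The 3 counts stand for 0.65 CPM in mutant 1, the shallowest library, and 0.26 and 0.30 CPM in mutants 2 and 3. With 0 in every mutant, Lyl1 passed the filter on low counts through the controls alone, so its p-value is not taken as support. Of the genes in the count table, 14.5% to 27.3% were at 0 in a mutant sample and 2.18% to 2.44% in a control sample. Of 10 arterial and venous genes, 1 fell and 9 did not pass. Unc5b, a netrin receptor listed as arterial, had 225, 401 and 300 CPM in controls and 68.5, 138 and 149 CPM in mutants (log2 fold change -1.38, SE 0.36, unadjusted p 0.00495 and adjusted p 0.0632, edgeR). Its control mean was 308 CPM, and those of the other 9 genes ran from 1.82 (Bmx) to 187 CPM (Hey1). Which cells its mRNA came from was not tested. Of the 10 genes 6 were negative, with a median of -0.24. With the length and GC correction Unc5b was -0.69 and still passed, and Gja5, an arterial connexin, rose (1.05, unadjusted p 0.0426). None of the 4 lymphatic genes tested passed. Prox1, also on that list, was too low to test, at 0.116 to 0.302 CPM in controls and 0 in all mutants. Lyve1, the hyaluronan receptor of lymphatic vessels, ranged from 4.28 to 34.0 CPM in controls and from 6.05 to 14.4 CPM in mutants. Pdpn, encoding podoplanin, ranged from 43.4 to 62.0 and from 31.0 to 55.2 CPM, and it passed when corrected (-0.62, unadjusted p 0.0468).

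Of 13 mural cell genes (pericytes and smooth muscle around vessels), 2 fell and 11 did not pass, with a median of -0.03. Pdgfrb, the receptor that recruits pericytes, had 110, 170 and 68.2 CPM in controls and 50.4, 73.4 and 41.6 CPM in mutants, which overlap (log2 fold change -1.07, SE 0.37, unadjusted p 0.0201 and adjusted p 0.147, edgeR). It did not pass after the length and GC correction (-0.53). Acta2, encoding smooth muscle actin, had 108, 82.1 and 75.9 CPM against 55.4, 61.0 and 61.0 CPM (-0.59, SE 0.23, unadjusted p 0.0319 and adjusted p 0.192), and it remained past the threshold after the length and GC correction (-0.75, unadjusted p 0.00492). The summed level of the 14 mural genes was 429 to 798 CPM in controls and 565 to 737 CPM in mutants.

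**Figure D5:**
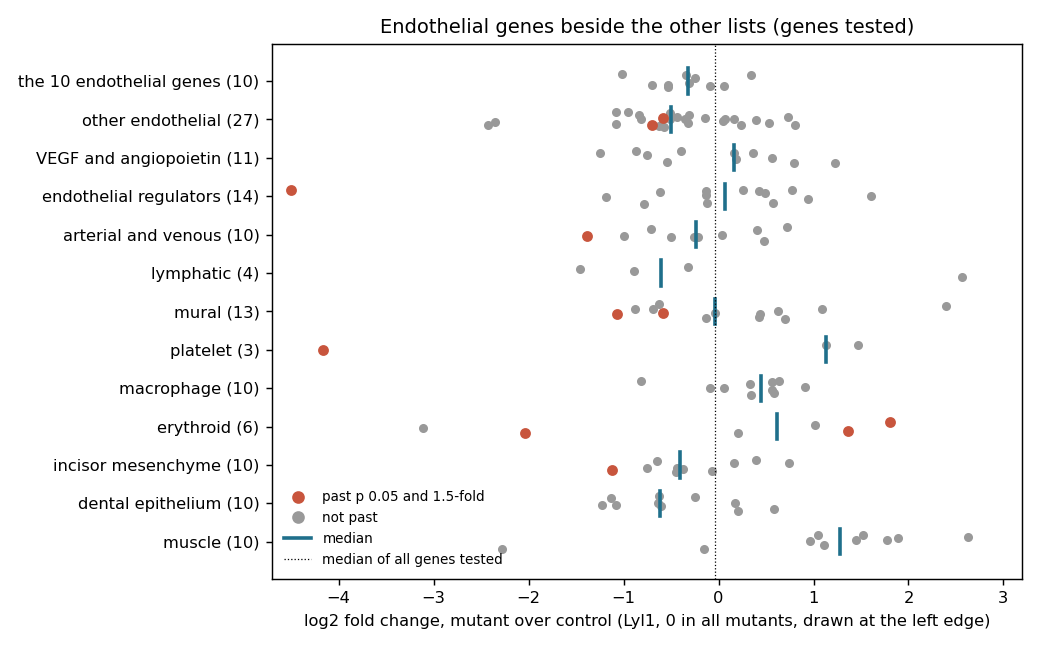
Log2 fold change (mutant over control) of each gene tested in each list, with the number tested in brackets, red points for genes past the study's threshold, blue bars for list medians and a dotted line for the median of all genes. The 10 endothelial genes have no red point and a median of -0.33.

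Several members are also expressed by blood cells, so blood cell genes are given beside them. Pecam1 and Vwf are shared with platelets. Of 10 platelet genes 3 were tested, the rest being too low, and 5 were at 0 in every mutant. Gp1bb, a subunit of the platelet receptor for von Willebrand factor, fell from 3.76, 4.15 and 3.93 CPM to 0, 0 and 0.61 CPM (unadjusted p 0.026 and adjusted p 0.172, edgeR). The other 2 tested had positive values and did not pass: Pf4, platelet factor 4, had 18.7, 14.6 and 5.98 CPM in controls and 51.1, 19.5 and 16.0 CPM in mutants (log2 fold change 1.13), and Itga2b, the platelet integrin chain, had a log2 fold change of 1.47. With the length and GC correction Pf4 changed sign, to -0.77, and Itga2b was 2.08, and neither passed. Gp1bb was then -3.72 and still passed (unadjusted p 0.0409, edgeR). The summed platelet level, not corrected in this way, was 11.6 to 33.3 CPM in controls and 19.9 to 62.2 CPM in mutants. None of 10 macrophage genes passed, with a summed level of 119 to 351 CPM in controls and 263 to 328 CPM in mutants. Csf1r, the receptor for macrophage colony-stimulating factor, had 30.5 to 117 CPM in controls and 28.5 to 55.2 CPM in mutants, and lysozyme Lyz2 had 40.8 to 130 and 92.8 to 162 CPM. With the length and GC correction 1 macrophage gene fell, Tyrobp (-0.93, unadjusted p 0.0401).

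The summed erythroid level was 380 to 834 CPM in controls and 926 to 2560 CPM in mutants, higher in every mutant. Of 6 erythroid genes tested, 2 rose and 1 fell. Hbb-bs, a beta globin, rose by 1.81 on the log2 scale (unadjusted p 0.00613 and adjusted p 0.0727, edgeR) and was 0.22 after the length and GC correction. The alpha globins Hba-a1 (-2.04) and Hba-a2 (1.36) are near-identical copies that share reads, so their opposite values are uncertain.

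Of 10 incisor mesenchyme genes, 1 fell. It was Col1a2, a type I collagen chain, with 3920, 9060 and 4600 CPM in controls and 2730, 2460 and 2880 CPM in mutants (log2 fold change -1.12, unadjusted p 0.0312 and adjusted p 0.19, edgeR). It did not pass once corrected for length and GC (-0.49, unadjusted p 0.125). None of 10 dental epithelium genes passed. Amelx and Ambn, genes of enamel matrix proteins, had log2 fold changes of -1.23 (SE 0.67) and -1.13 (SE 0.57), with all mutants below all controls. With the length and GC correction 3 genes fell: Amelx (-2.44, unadjusted p 0.00346), Ambn (-1.62, unadjusted p 0.00637) and Enam, another enamel matrix gene (-1.33, unadjusted p 0.0281). In that fit 2334 of all 15826 genes tested passed in either direction. None of the 10 muscle genes passed, with Acta1 (skeletal actin) at 2.33 to 883 CPM in controls and 41.2 to 1660 CPM in mutants, and Mylpf (a fast myosin light chain) at 3.29 to 308 and 13.8 to 1720 CPM. The part of these other cell types in the endothelial values was not tested.

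The genes named here for a pattern near to that of the 10 were not endothelial genes of any list. The mean centred log2 CPM of the 10 was 0.03, 0.55 and 0.01 in controls and 0.11, -0.26 and -0.43 in mutants. Among 11598 genes with a mean of at least 5 CPM, those of Iqce (0.05), Epb41l1 (0.07), Dpp9 (0.08) and Acp2 (0.09, all in log2 units) were among the smallest root mean square differences from it over the 6 samples. The 10 genes themselves differed from their own mean by 0.19 (Kdr) to 0.74 (Cdh5). Of 24 other endothelial genes ranked in this way, 4 were in the nearest 10%. The summed level of all 28 listed was 625 to 826 CPM in controls and 512 to 567 CPM in mutants, separate between the groups, whereas that of the 10 genes was 288 to 459 and 225 to 326 CPM, which overlap.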

How the data were processed

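RNA from 3 control and 3 mutant incisor samples was sequenced by the authors as single reads and processed in Partek Flow. The submitters' processing notes name TopHat2 2.0.8 and mm10. The counting model and annotation are not given in the sources used here. The authors deposited estimated counts per gene, not normalized; a second deposited table, of their comparison (p-values, ratios, group means), was not used.

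Counts were rounded, scaled by the upper quartile and tested with edgeR 4.0.16 (R 4.3.3, two-sided quasi-likelihood test, genotype as the only term, default filter at 10 counts per sample and 15 in total, Benjamini-Hochberg over all 15826 genes). The SE is the log2 fold change divided by the root of F, and log2 CPM had a prior count of 2. DESeq2 1.42.0, limma 3.58.1, other scalings and filters, each sample left out, and thinned control counts were tried, and each sample was also corrected for its trend with transcript length and GC (GENCODE M21). On simulated counts, in which 200 of 15628 genes were changed, 57% of 2-fold and 100% of 4-fold changes were recovered with 4 false calls. The simulated spread was fixed, equal for all genes and not estimated from these samples. Changed genes were drawn only from those with enough counts in the shallowest library. The power for the 10 genes cannot be read from this recovery. With a simulated length trend alone, 3525 genes were called before and 5 after the correction. That trend was linear in log2 length, a form the correction can fit, so its removal was built in. A count of 0 allows up to 3 counts, and intervals from counts cover counting error only.

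All 10 genes were named, with Fgfr1. Each other list gave up to 2 risen and 2 fallen genes by smallest p, else its 2 highest, and the 5 genes nearest in pattern were added, of which 1 is not reported here. Dspp, Pf4, Itga2b and further genes that passed when corrected were added after their values were seen. The members and lists were chosen with earlier results of these data known.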

Additional observations from a re-analysis of the deposited data

How the results depend on the processing

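No member had an adjusted p under 0.05 in any of the 17 alternatives. The number past the study's threshold, 0 with all samples and settings as described, was 2 with TMM, total counts only, DESeq2 and the replicate block (Pecam1 and Cdh5), 1 with RLE size factors, no filter and thinned control counts (Pecam1), and 1 without both control 2 and mutant 1 (Tie1), an alternative chosen after seeing the data. It ran from 0 to 2 with 1 sample left out: Cdh5 without control 1, Tie1 and Esam without mutant 1, and Pecam1 without mutant 2. The causes were not tested. Of all 15826 genes tested, 3137 passed as described, 3251 with TMM, 3209 with RLE size factors and 3588 with total counts only. DESeq2 gave 3358 and the replicate block 2743. With no filter 4733 of 19060 genes passed, and with thinned control counts 2668 of 14524. The number was 4613 of 17227 without mutant 1, 4732 of 17099 without mutant 2 and 2676 of 15519 without control 1. It was 3375 of 16168 without both control 2 and mutant 1. With 1 sample left out, the members' median ran from -0.54 (without mutant 1) to -0.05 (without control 2). A scaling by total counts alone moved the median of all genes to -0.30 and that of the members to -0.59. The length and GC correction moved them to -0.12 and -0.04.

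The other endothelial genes past the threshold, 2 as described, were 4 with TMM, RLE size factors, no filter and a mean of at least 50 counts, 5 with DESeq2, 6 with total counts only, 0 without both control 2 and mutant 1, and 0 to 6 with 1 sample left out (0 without control 2, 1 without control 1, control 3 or mutant 3, 6 without mutant 2). They were 3 with the replicate block or thinned counts, and 0 after the length and GC correction.

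Of 170 refits of single members, 136 kept direction and side of the threshold, 16 moved past it and 18 changed sign. Emcn was -0.049 with TMM, -0.24 with total counts, -0.28 with limma-voom, -0.061 with the replicate block and -0.66 with the length and GC correction, which also gave Kdr 0.25, Vwf 0.11, Flt1 0.12 and Tie1 0.15. Without both control 2 and mutant 1, Emcn was -0.37, Tek 0.045, Flt1 0.21 and Egfl7 -0.42. With 1 sample left out, Emcn ran from -0.38 to 0.34, Kdr from -0.30 to 0.18, Flt1 from -0.44 to 0.18 and Egfl7 from -0.27 to 0.64. The log2 Flt1 over Kdr difference ran from -0.31 to 0.10, that of Tie1 over Tek from -0.95 to 0.39 (0.21 with the length and GC correction), and that of Vwf over Pecam1 from 0.07 to 0.58.

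Samples with the same number were not paired by their values: their deviations from the group means correlated at 0.05, 0.01 and 0.05. The mutant libraries held fewer counts than any control, so depth and genotype cannot be told apart. The deposited sample names also differ in form between controls and mutants. The labels do not say whether the groups were prepared or sequenced together. Any such difference cannot be told apart from genotype either.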
